A study of Mus musculus with 7 samples.

Results

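The messenger RNAs of 10 protein-folding genes were followed through a sequencing experiment on RNA recovered from nuclei of mouse embryonic stem cells. They are the HSP90 genes Hsp90ab1, Hsp90aa1 and Hsp90b1, the HSP70 genes Hspa8, Hspa5 and Hspa9, the HSP110-type genes Hspa4 and Hsph1, the chaperonin gene Hspd1 and the calnexin gene Canx. They were taken by name, 10 of the 55341 gene symbols in the annotation, of which 23305 had at least 1 sense read. The study used RNA immunoprecipitation sequencing, in which a protein is captured from a lysate by an antibody and the RNA bound to the beads is copied into cDNA and read. Wild-type embryonic stem cells of strain 129X(M.castaneusX129) were grown with LIF and gave 5 libraries with an antibody to Ezh2, the methyltransferase of Polycomb complex PRC2, and 1 library with IgG in place of it. A further Ezh2-antibody library came from Ezh2 null embryonic stem cells, whose strain is labelled only M.musculus. Among the 5 wild-type Ezh2 libraries are 1 technical and 1 biological replicate, and 2 are deeper runs of samples already among them. The values below come from a single table of distinct read sequences and their counts. The table's name carries the letters WT and BR, which may stand for wild type and biological replicate. No header or sample label says so or ties its counts to one of the 7 libraries, so which of them the table holds is not known. It was therefore read as 1 pool, with no replicates, no test between antibodies or genotypes and no p-value, and no level below is an enrichment over a control.

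Chaperones bind unfolded or partly folded proteins and keep them from clumping. HSP90 proteins are dimers that bring kinases, hormone receptors and other client proteins to maturity using ATP, and in each of them a charged linker rich in glutamate and lysine joins the N-terminal and middle domains. HSP70 proteins bind short hydrophobic stretches with help from J-domain proteins and from HSP110-type exchange factors, HSP60 encloses proteins in a ring, and calnexin holds newly made glycoproteins in the endoplasmic reticulum through their sugars. HSP90 and HSC70 are among the most abundant proteins of the cytosol.

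The reads of these mRNAs sat in a few narrow stretches. Sequences at coding stretches of Hsp90ab1, Hsp90aa1, Hsp90b1, Hspa5 and Canx are shown here because the rest of the description refers to them. Reads are the reverse complement of the RNA, so the base at which a read starts is the last RNA base, on the 3′ side, of its matched part. Each line runs 5′ to 3′ in the sense of the RNA. It gives the 34 bases that end at the most used start position of a 50-base stretch, followed by the next 20 bases on the 3′ side, of which the first 6 lie under the leading read bases that were left out. Capitals mark in-frame codons for aspartate or glutamate, whole or as far as they reach into the line. All lines are coding sequence from the GENCODE transcripts, with GRCm38 positions.
Hsp90ab1 stretch 1, exon 9, codons 515 to 533, chr17:45568992-45569045, minus strand: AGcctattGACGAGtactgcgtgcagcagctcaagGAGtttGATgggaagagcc
Hsp90ab1 stretch 2, exon 9, codons 532 to 549, chr17:45568942-45568995, minus strand: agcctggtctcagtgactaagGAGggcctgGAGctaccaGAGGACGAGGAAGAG
Hsp90ab1 stretch 3, exon 6, codons 217 to 235, chr17:45570512-45570565, minus strand: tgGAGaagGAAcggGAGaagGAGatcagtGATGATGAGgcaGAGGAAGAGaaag
Hsp90aa1 stretch 1, exon 4, codons 192 to 209, chr12:110694607-110694660, minus strand: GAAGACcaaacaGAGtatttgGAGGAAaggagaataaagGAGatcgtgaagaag
Hsp90aa1 highest stretch once reads shared with other genes are added, exon 5, codons 223 to 241, chr12:110694286-110694339, minus strand: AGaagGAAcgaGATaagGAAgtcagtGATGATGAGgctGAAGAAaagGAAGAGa
Hsp90b1 stretch 1, exon 17, codons 772 to 790, chr10:86691643-86691696, minus strand: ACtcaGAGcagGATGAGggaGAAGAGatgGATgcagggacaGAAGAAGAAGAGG
Hsp90b1 stretch 3, exon 7, codons 300 to 317, chr10:86698343-86698396, minus strand: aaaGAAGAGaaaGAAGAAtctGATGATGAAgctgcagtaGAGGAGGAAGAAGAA
Hspa5 stretch 2, across exons 5 and 6, codons 201 to 219, chr2:34773928-34774075, plus strand, intron left out: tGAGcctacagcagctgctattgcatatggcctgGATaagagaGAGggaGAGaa
Hspa5 stretch 3, exon 9, codons 563 to 580, chr2:34775832-34775885, plus strand: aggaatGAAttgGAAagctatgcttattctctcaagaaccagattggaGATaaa
Canx stretch 1, exon 7, codons 212 to 230, chr11:50307506-50307559, minus strand: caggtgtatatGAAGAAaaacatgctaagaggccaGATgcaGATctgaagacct
Canx stretch 2, exon 8, codons 268 to 286, chr11:50304384-50304437, minus strand: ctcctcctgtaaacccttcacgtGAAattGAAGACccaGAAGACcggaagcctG
Canx stretch 3, exon 13, codons 527 to 545, chr11:50297283-50297336, minus strand: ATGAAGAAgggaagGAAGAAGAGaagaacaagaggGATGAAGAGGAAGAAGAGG

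Acidic codons run together in stretch 3 of Hsp90ab1, the shared stretch of Hsp90aa1, both stretches of Hsp90b1 and stretch 3 of Canx, and in stretch 2 of Hsp90ab1 they do so in the bases after the matched part. The matched part of stretch 1 of Hsp90aa1 holds 5 acidic codons. The matched parts of stretches 1 and 2 of Hsp90ab1 hold 3 and 2 of them, those of stretches 1 and 2 of Canx 2 and 3, and those of stretches 2 and 3 of Hspa5 1 and 2. The 20 bases that follow were purine-rich in most lines, from 12 purines in stretches 1 and 2 of Canx to 19 in stretch 1 of Hsp90b1, stretch 2 of Hspa5 and stretch 3 of Canx.

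Depth and cell identity bear on all values. The table holds 34072479 reads, of which 31529044 were long enough to be searched, and 28.2% of those were sense reads of a single gene, 11.3% matched several genes and 52.6% matched none. Of 14 embryonic stem cell markers 12 had at least 50 sense reads, led by Lefty2 with 66761, while Nanog had 37 and Utf1 6. Nanog had a further 2215 reads that matched other genes as well, and Utf1 had none. All 12 fibroblast and matrix markers also had at least 50, led by Fn1 with 39715, and the summed sense reads were 107769 for the stem cell list and 59990 for the fibroblast list. Of 11 early differentiation markers 2 had at least 50 and 4 had none, Foxa2, Gata6, Krt18 and Mixl1. The part that other cells have in the chaperone reads was not tested, and in bulk RNA fewer cells and less RNA per cell cannot be told apart.

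Hsp90ab1, the constitutive cytosolic HSP90, stood far above the other chaperone mRNAs. It had 82776 sense reads, with an exact Poisson 95% interval of 82213 to 83342, which made it the fifth of the nuclear coding genes by reads. Per length its level was 875 RPKM (869 to 881), that is, sense reads divided by the kilobases of merged exons and by searched reads in units of 1000000, the second highest of 21910 nuclear coding genes. It alone held 60.6% of the 136541 sense reads of the 10 genes, and the 10 together 2.33% of nuclear sense reads. All intervals take reads as independent molecules and so cover counting error only.

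The genes nearest to Hsp90ab1 in RPKM were of other kinds. Serbp1, an mRNA-binding protein gene, was the only one above it, at 1146 RPKM. Bms1, a ribosome biogenesis factor gene, followed at 872 RPKM (868 to 877), an interval that overlaps that of Hsp90ab1. Lefty2, a Nodal antagonist, came next at 811 RPKM and Eif3a, a translation initiation factor subunit, at 739. In this order only the neighbours Hsp90ab1 and Bms1 were not separated by counting error.

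Of the other members, 3 lay near 100 RPKM. Hsp90aa1, the stress-inducible cytosolic HSP90, had 17823 sense reads and 144 RPKM (142 to 146). Hsp90b1, the HSP90 of the endoplasmic reticulum, had 15386 reads and 121 RPKM (119 to 123). Canx had 13073 reads and 88.4 RPKM (86.8 to 89.9), and the 3 intervals do not overlap.

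The remaining mRNAs were lower. Hspa5, which encodes the endoplasmic reticulum HSP70 BiP, had 3567 reads and 26.8 RPKM (25.9 to 27.6), and Hspa9, the mitochondrial HSP70 mortalin, had 2691 reads and 19.8 RPKM (19.1 to 20.6). Hspa4, an HSP110-type exchange factor, had 827 reads and 4.74 RPKM (4.43 to 5.08). Hspd1, the mitochondrial chaperonin HSP60, had 232 reads and 2.79 RPKM (2.44 to 3.17). Hsph1, another HSP110, had 141 reads and 0.615 RPKM (0.518 to 0.726), and Hspa8, the constitutive cytosolic HSC70, had 25 reads and 0.184 RPKM (0.119 to 0.272). No neighbours in this order overlapped in their counting intervals.

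Of the 10 members 9 had at least 50 sense reads, Hspa8 being the exception, and 29.1% of nuclear coding genes did. The members' median was 23.3 RPKM, beside 0.975 RPKM over the 6383 nuclear coding genes with at least 50 sense reads and 0.0858 over all nuclear coding genes, and 8 of the 10 lay above 0.975.

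**Figure D1:**
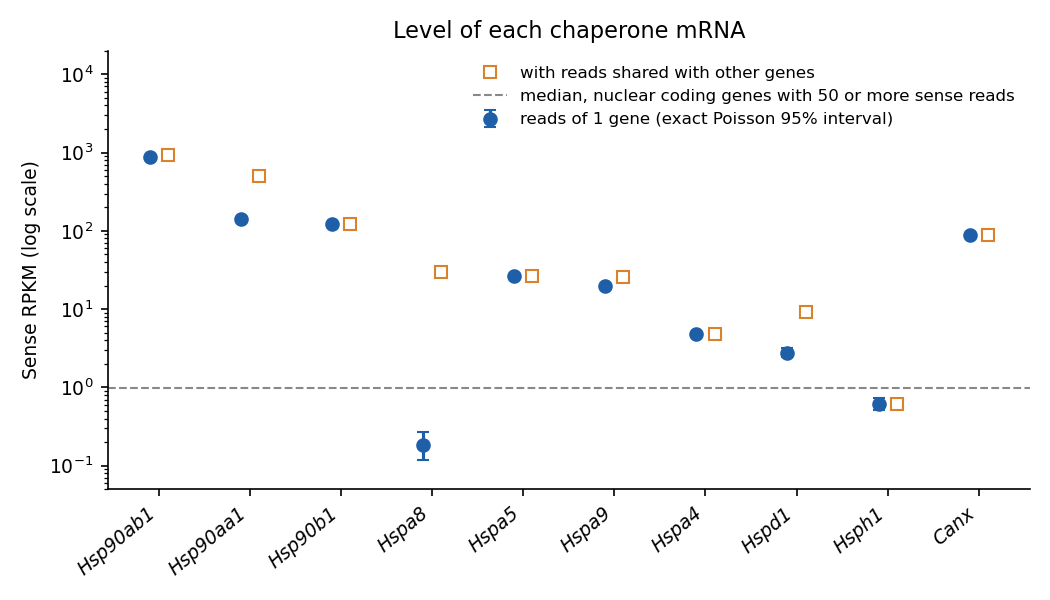
Sense level of each chaperone mRNA in RPKM on a log axis, from reads of 1 gene with exact Poisson 95% intervals (circles) and with reads that match other genes equally well added (open squares, no interval). Hsp90ab1 is highest at 875 RPKM, and the open square lies far above the circle for Hspa8 (29.4 against 0.184), Hsp90aa1 (506 against 144) and Hspd1 (9.18 against 2.79).

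The low counts of Hspa8 and Hspd1, and the count of Hsp90aa1, depend on reads that other genes match as well. Hspa8 had 3962 such reads beside its 25, or 99.4% of its best-matching sense reads, Hsp90aa1 had 44904, or 71.6%, and Hspd1 had 533, or 69.7%. For Hspa9 the share was 23.9%, for Hsp90ab1 6.34% and for Hsp90b1 1.05%, and for Hspa5 it was a single read. Hspa4, Hsph1 and Canx had none.

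The partners were almost always processed pseudogenes, which are copies of the spliced mRNA. Of the 44904 shared reads of Hsp90aa1, 44903 matched pseudogenes only. Gm12346 matched 44596 of them and had 11 sense reads of its own, and Gm5844 matched 43331 and had 3. For Hspa8 the leading partners were Gm8355 with 2905 shared and 97 own reads and Gm15459 with 2845 shared and 60 own. No read was shared between 2 of the 10 members, and which copy made a shared read cannot be told apart.

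Many reads counted for 1 gene also lay close to another. With reads left out when another gene matched within 1 further mismatch, Hsp90aa1 kept 733 of its 17823 reads and fell from 144 to 6.07 RPKM, below Hspa5. RPKM under this setting is scaled to the smaller number of reads kept. Hspa9 kept 1115 of 2691 reads, at 8.43 RPKM, and Hspa8 5 of 25, at 0.0379 RPKM. Hspd1 kept 154 of 232 and Hsp90ab1 60905 of 82776, at 662 RPKM. Hsp90b1 kept 15366 of 15386 and Canx 13069 of 13073, and Hspa5, Hspa4 and Hsph1 lost none. The level of Hsp90aa1 thus ranged from 6.07 to 506 RPKM with the treatment of close copies.

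The share of each mRNA that can give a read of 1 gene also varied. Every stretch of 34 bases of Hspa5, Hspa4, Hsph1 and Canx matched a single gene. For Hsp90b1 95.1% did, for Hspa9 88.2%, for Hsp90ab1 87.2%, for Hspd1 46.4%, for Hsp90aa1 37.9% and for Hspa8 21.1%. With shared reads added, the order became Hsp90ab1 at 935 RPKM, Hsp90aa1 at 506, Hsp90b1 at 122, Canx at 88.4, Hspa8 at 29.4, Hspa5 at 26.8, Hspa9 at 26.0, Hspd1 at 9.18, Hspa4 at 4.74 and Hsph1 at 0.615. Hsp90ab1 then held 45.9% of the members' 192546 reads.

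Reads of Hsp90ab1 came from a small part of its transcript (ENSMUST00000024739.13, 11 exons). The gene lies on chromosome 17 at 45567775 to 45573271, minus strand. Exon 9, with 10.7% of the transcript's length, held 69.5% of the reads, exon 6 held 17.96% on 12.3% of the length, and exon 8 held 9.19% on 5.87%. The first 50-base stretch shown above, on transcript bases 1641 to 1690, had 29183 reads, 35.5% of those on this transcript (35.1 to 35.8). The second, bases 1729 to 1778, had 26721 reads or 32.5%, and the third, bases 751 to 800, had 9074 or 11.02%.

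Together the 3 stretches made up 78.9% of the Hsp90ab1 reads on 5.95% of its length. Reads started at 48, 50 and 48 of the 50 bases in each, so they were broad clusters of starts. The single most used base, 1682, had 10903 reads, 13.2% of all sense reads. Of 473 start positions, 13 held at least 50% of the reads.

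From reads of 1 gene, most of Hsp90aa1 was read in a single place. Its gene lies on chromosome 12 at 110690605 to 110702728, minus strand. Of its reads 17079, or 95.8% (95.5 to 96.1), started in 50 bases of exon 4, and 7990, or 44.8% (44.1 to 45.6), started at 1 base. Of these 17079 reads, 73 had no other gene within 1 further mismatch, and which copy made the rest cannot be told apart. The other reads were 656 in exon 11, 50 in exon 5, 35 in exon 8 and 3 in exon 2. Only 24.6% of the 34-base stretches of exon 4 match a single gene. With shared reads added, the highest stretch moved to bases 840 to 889 in exon 5, with 34496 reads or 55.0% of the total, none of them of 1 gene.

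In Hsp90b1, on chromosome 10 at 86690209 to 86705509, minus strand, reads were spread over more positions. The stretch in exon 17 held 4274 reads, 27.8% (27.1 to 28.5), and a stretch in the 3′ untranslated part of exon 18 held 2458, or 15.98%. The stretch in exon 7 held 2344, or 15.2%. The top base held 6.58% of the reads, and 26 of 419 start positions were needed for 50% of them.

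Canx, on chromosome 11 at 50293961 to 50325673, minus strand, showed 3 separate stretches. They held 4261 reads in exon 7, 32.6% (31.8 to 33.4), 3337 reads or 25.5% in exon 8, and 1472 reads or 11.3% in exon 13. The first rested on 15 start positions and the second on 12, while the third had 41. The top base, in exon 7, had 2059 reads or 15.8% of all.

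Hspa5, on chromosome 2 at 34771970 to 34777547, plus strand, had its highest stretch in the 3′ untranslated part of exon 9, with 845 reads or 23.8% (22.4 to 25.3). The coding stretches shown above had 674 reads, 19.0%, and 379 reads, 10.7%. Hspa9 had 1434 reads, 53.6% (51.7 to 55.5), in a coding stretch of its last exon, exon 17, of which 189 had no other gene within 1 further mismatch, and 238 reads, 8.90%, in a stretch of the 3′ untranslated part of the same exon. A coding stretch of its exon 14 held 225 reads, 8.41%.

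The thin mRNAs gave few positions. Hspa4 (chromosome 11, 53259814 to 53300457, minus strand) had its highest stretch in exon 16 with 126 of its reads, 15.2% (12.9 to 17.9). Hspd1 (chromosome 1, 55077835 to 55088243, minus strand) had 152 of 232 reads in 1 stretch of exon 9, 110 of them at 1 base. Hsph1 (chromosome 5, 149614287 to 149636376, minus strand) had 27 reads at a single base of exon 7, all of 40 bases. Hspa8 (chromosome 9, 40800984 to 40810087, plus strand) had 17 reads in exon 2, 14 of them in 50 bases, and its shared reads were highest in exon 8, with 1149 in 50 bases.

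**Figure D2:**
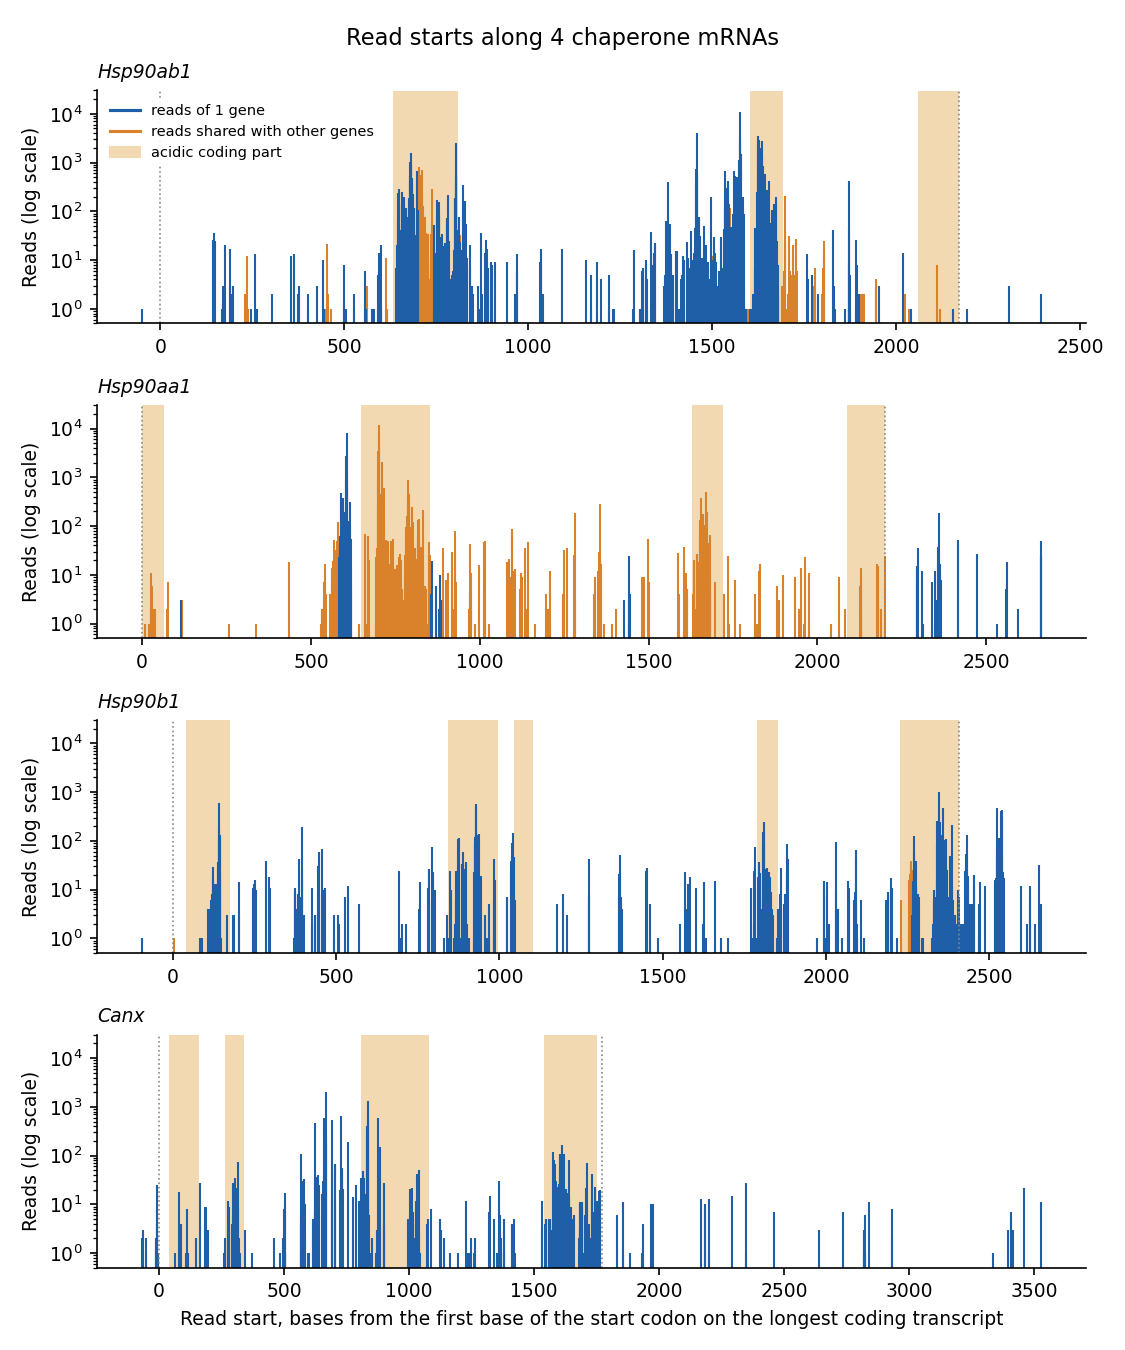
Number of reads (log axis) starting at each base of Hsp90ab1, Hsp90aa1, Hsp90b1 and Canx, against distance from the start codon in bases on the longest coding transcript, with reads of 1 gene in blue, reads that match other genes equally well in orange, acidic coding parts shaded and dotted lines at the ends of the coding sequence. Of the blue lines of Hsp90aa1 the highest stand in 1 cluster before the shaded linker part, with few elsewhere, and the 34496 reads of its highest stretch in the linker are orange.

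The most used start position held at least 20% of sense reads in 2 of the 9 members with 50 or more, Hsp90aa1 (44.8%) and Hspd1 (47.4%, 40.8 to 54.1). Over all nuclear genes with at least 50 sense reads, 58.7% did, and the members' median of 15.8% stands beside 22.4% over those genes. The members had between 26 and 473 start positions each, beside a median of 24 over these genes, and the part of that difference in the shares was not tested. Hsph1, at 19.1% (13.0 to 26.6), and Hspa9, at 16.4% (15.0 to 17.8), lay just under the 20% mark.

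Most reads in the table have 36 or 40 bases, and the leading start positions were compared between these lengths. The 36-base reads of Hsp90ab1 numbered 5078 and the 40-base reads 77426, and base 1682 was the top start in each, with 9.69% and 13.4%. Of the 36-base reads of Hsp90ab1, 99.3% started where a 40-base read also started, and of those of Hsp90aa1 99.9% did. The top position was the same in both lengths for Hsp90ab1, Hsp90aa1, Hspa5, Hspd1 and Canx, and differed for Hsp90b1, Hspa8, Hspa9, Hspa4 and Hsph1. The ratio of 36-base to 40-base reads was 0.0656 in Hsp90ab1, 0.0579 in Canx, 0.0899 in Hsp90b1, 0.136 in Hsp90aa1 and 0.167 in Hspa9, and 0.127 in the median of 6297 nuclear coding genes. Nothing in the labels says what the lengths stand for.

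The reads were mostly coding. In Hsp90ab1 99.4% of sense reads had their middle base in the coding sequence, which is 86.3% of the transcript, and only 6 reads lay in the 3′ untranslated part, 9.52% of its length. In Canx 97.8% were coding on 41.5% of the length, and in Hspa4 98.2% on 54.8%. Hsp90aa1 had 96.3% coding reads, Hspa9 87.7% and Hspd1 87.1%. Hspa5 had 27.2% of its reads and 39.1% of its length in the 3′ untranslated part. Hsp90b1 was the only member with a larger share of its reads than of its length there, 19.0% against 9.27%.

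Exon junctions were crossed by reads of 1 gene in 9 members. Reads that cross an exon junction made up 5.56% (5.40 to 5.72) of Hsp90ab1 reads, beside 13.3% of its 34-base stretches, and touched 8 of 10 junctions. In Hspa5 they made up 20.2% (18.9 to 21.6), beside 7.25% of the stretches. Canx had 11.6% on 12 of 14 junctions and Hsp90b1 8.45% on 12 of 17. In Hsp90aa1 junction reads could not be measured from reads of 1 gene, since a single 34-base stretch across its junctions matches 1 gene, and 767 of its shared reads crossed a junction of its transcript. Processed pseudogenes hold the spliced sequence, so such shared reads do not tell spliced mRNA from a copy. Introns were not searched, so the share of unspliced RNA is not known.

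Acidic coding parts, where 8 or more of 20 residues in a row are aspartate or glutamate, held many of the HSP90 reads. In Hsp90ab1 these parts are 126 of 724 codons, 17.4%, and held 42512 of 82305 coding reads, 51.7% (51.3 to 52.0), so that reads per codon were 5.07 times (5.001 to 5.14) those of the rest. In Hsp90b1 they are 24.7% of codons and held 79.2% of coding reads (78.5 to 79.9), a ratio of 11.6 (11.1 to 12.1). Both are above the ratio of 2 used for a call, but with acidic parts taken as 30-residue windows with at least 12 acidic residues the ratio of Hsp90ab1 was 1.53.

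The individual parts were far from equal. In Hsp90ab1 the linker part, codons 212 to 270, held 15335 reads or 18.6% of coding reads, codons 535 to 564 held 27176 or 33.02%, and the C-terminal part, codons 688 to 724, held 1 read. In Hsp90b1 the C-terminal part, codons 743 to 802, held 4693 reads or 37.7%, the linker part, codons 282 to 332, held 2819 or 22.6%, and codons 15 to 59 held 1375 or 11.04%. A further part of Hsp90b1, codons 349 to 368, held none, and a count of 0 is taken here to allow up to 3 reads. Some acidic parts were therefore unread, and some clusters lay outside them, such as that of the top base of Hsp90ab1, in codon 526, before the part that begins at codon 535.

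In Hsp90aa1 the ratio depended on the shared reads. From reads of 1 gene its acidic parts, 21.4% of codons, held 29 of 17167 coding reads, a ratio of 0.00621 (0.00416 to 0.00892). Only 6.86% of the 34-base stretches of its linker part, codons 217 to 284, match a single gene. With shared reads added, the linker part held 39709 of 62070 coding reads, 64.0%, and the ratio was 7.91. In Hsp90ab1 the linker part held 22.8% with shared reads added. The part that follows in both genes, codons 544 to 573 of Hsp90aa1 and 535 to 564 of Hsp90ab1, then held 4.13% and 31.4%.

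The other members did not go one way. Hsph1 had a ratio of 3.37 (1.79 to 5.93) from 15 of 87 coding reads. Hspa5 had one of 1.87 (1.68 to 2.08) and Canx one of 1.47 (1.41 to 1.52). Hspa4 had 0.817 (0.551 to 1.17), an interval that holds 1. The ratio of Canx became 2.64 with each distinct sequence counted once, and 0.858 with 20-residue windows of at least 10 acidic residues. With 10-residue windows of at least 6 acidic residues, Hspa5 fell to 0.456 and Hspa4 rose to 2.10. In Canx, whose acidic parts are 38.6% of codons, the part in codons 270 to 360 held 29.6% of coding reads and the C-terminal part, codons 514 to 584, held 15.98%. Canx codons 14 to 53 and 89 to 114 held 0.485% and 1.88%. Hspa9 and Hspd1 have no acidic part by this measure, and Hspa8 had 19 coding reads.

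Of the 7 members that could be measured, 3 reached a ratio of 2, Hsp90ab1, Hsp90b1 and Hsph1. Over 2143 nuclear coding genes 39.9% reached it, so the members' share is near the background. The members' median ratio was 1.87, beside 1.15 over those genes (middle 50% from 0.0254 to 4.85). Counting each start position once, all 5 members with at least 50 coding positions reached 2, beside 55.7% of 616 genes. Their ratios were then 3.68 for Hsp90b1, 3.08 for Hsp90ab1, 2.45 for Canx, 2.38 for Hspa4 and 2.13 for Hspa5, and the median over the 616 genes was 2.27.

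**Figure D3:**
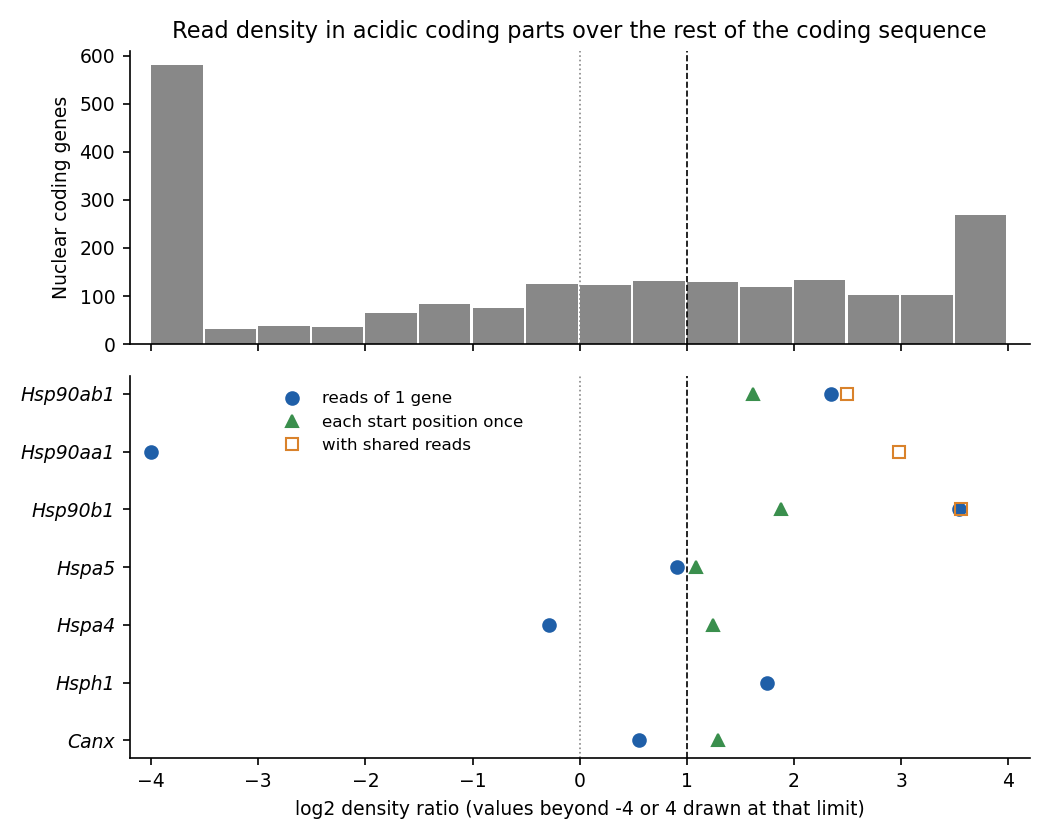
Upper panel, number of nuclear coding genes by log2 ratio of reads per codon in acidic parts to reads per codon elsewhere in the coding sequence, with values beyond 4 in either direction drawn at that limit. Lower panel, the same ratio for the 7 members with 50 or more coding reads, from reads of 1 gene (circles), counting each start position once (triangles) and with shared reads added (squares), where the dashed line marks a ratio of 2 and Hsp90aa1 moves from 0.00621 to 7.91.

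Purines were more frequent at the reads than in the coding sequence as a whole. The matched parts of Hsp90aa1 were 76.6% purine by reads against 58.4% over all its 34-base coding stretches, and those of Hsp90b1 73.5% against 58.6%. Hsp90ab1 gave 61.7% against 56.3%, and Hspa5 56.3% against 55.9%. In Hspa8, from few reads, the matched parts had 45.5% against 53.7%. The difference was above 0 in 9 of 10 members, with Hspa8 the exception on 19 coding reads. The median over all 10 was 4.73 percentage points, beside 2.05 over 3893 nuclear coding genes, of which 66.2% were above 0.

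The 20 bases on the 3′ side of the matched part were richer still. In Hsp90ab1 they were 77.5% purine by reads, 21.3 percentage points above the coding sequence, in Hsp90b1 82.8% and 23.9 points above, in Hspa9 78.3% and 22.4 above and in Hsp90aa1 79.7% and 21.3 above. In Canx the difference was 7.72 points and in Hspd1 -0.743 points. The median over the 9 members with 50 coding reads was 15.7 points by reads and 10.7 by start positions, beside 11.7 and 10.4 over the nuclear coding genes, of which 93.6% were above 0 by reads. By start positions all 9 members were above 0, as were 96.2% of the genes. Purine-rich sequence on that side was thus common to most genes in the table. Acidic codons begin with GA and are themselves purine-rich. Hspa9, at 22.4 points, has no acidic part by the measure used, while Hsp90b1, at 23.9 points, had an acidic ratio of 11.6. The separate parts of purines and acidic codons in the clusters were not tested.

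**Figure D4:**
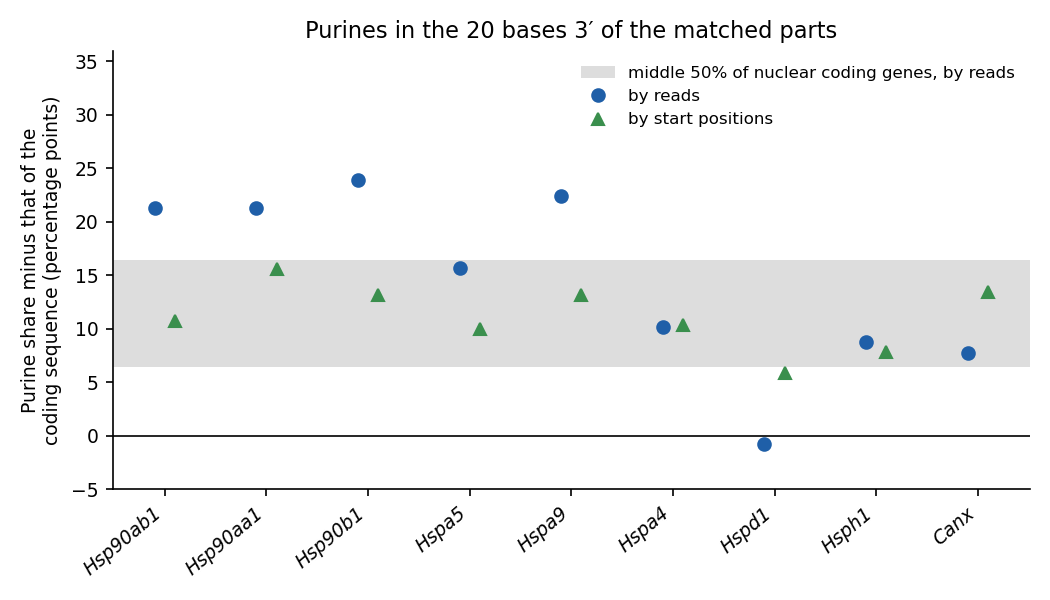
Purine share of the 20 bases 3′ of the matched parts minus that over the coding sequence, in percentage points, for the 9 members with 50 or more coding reads, weighted by reads (circles) or counting each start position once (triangles), with the middle 50% of nuclear coding genes by reads in grey. Hsp90ab1, Hsp90aa1, Hsp90b1 and Hspa9 lie above the grey band by reads, and all triangles lie above 0.

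Most reads ran in the sense of the mRNA. The antisense share by reads was 2.61% in Hsp90ab1 (2.50 to 2.72, 2218 reads), 0.319% in Hsp90aa1 (0.242 to 0.413) and 1.65% in Hsp90b1 (1.46 to 1.86). It was 8.82% in Hspa5, 3.76% in Hspa9, 4.61% in Hspa4 and 0.855% in Hspd1. Canx, with 3664 antisense reads and 21.9% (21.3 to 22.5), and Hsph1, with 55 and 28.1% (21.9 to 34.9), stood higher. The nuclear genes with at least 50 reads had a median of 16.98%, and the members a median of 4.18%.

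Hspa8 was the 1 member of 10 whose antisense share lay above 50% by its interval, at 71.6% (61.0 to 80.7) from 63 antisense and 25 sense reads, beside 15.7% of nuclear genes. Its 3962 shared sense reads are not in that share. The share was 46.9% with each distinct sequence counted once, 12.5% in 36-base reads and 84.7% in 40-base reads. By start positions it had 10 antisense and 12 sense positions, a share of 45.5% (24.4 to 67.8). None of the 7 members with at least 50 positions was above 50% by positions, where 2.04% of nuclear genes were.

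Antisense reads were also gathered at a few positions. In Canx 1771 of the 3664, 48.3% (46.7 to 49.97), started at 1 base, in exon 1 of an isoform. The longest coding transcript of Canx held 192 antisense reads in its upstream untranslated part and 1372 in its coding sequence, and 2077 lay off it. In Hsph1 45 of 55 started at 1 base of exon 11, and in Hspa4 30 of 40 at 1 base of exon 19. Hsp90ab1 had 80 antisense positions, the highest, in exon 4, with 293 reads or 13.2%. Counting positions in place of reads raised the antisense share of Hsp90ab1 to 14.5% (11.6 to 17.7) and of Hsp90aa1 to 12.4%, left that of Canx at 22.0% and lowered that of Hsph1 to 11.8%.

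**Figure D5:**
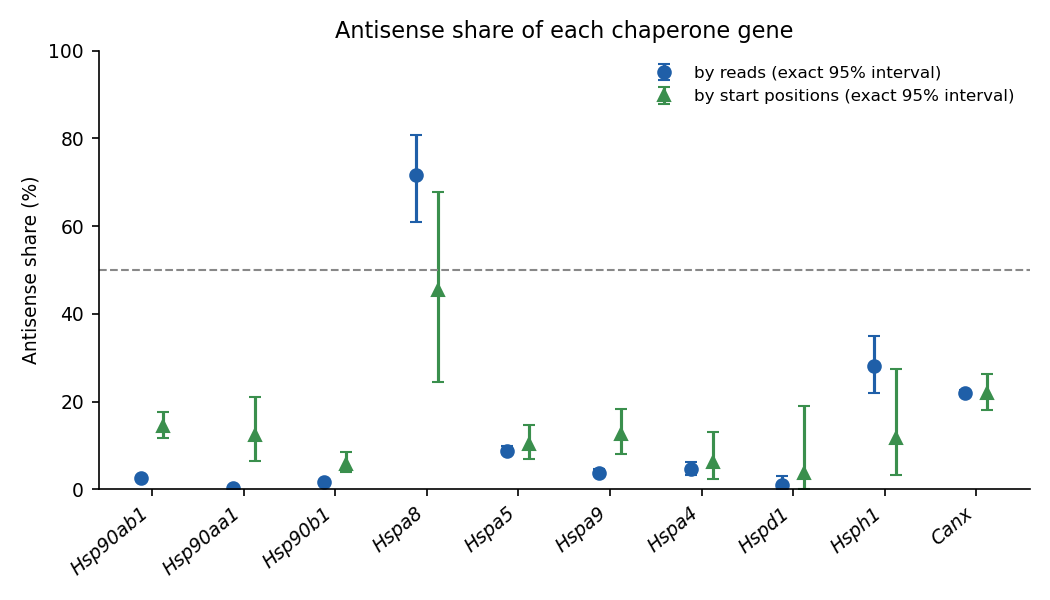
Antisense share in percent of each chaperone gene by reads (circles) and counting each start position once (triangles), with exact Clopper-Pearson 95% intervals and a dashed line at 50%. Hspa8 lies at 71.6% by reads and 45.5% by positions, and the other members lie under 30% in both.

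Partner genes of the chaperones were described from 9 lists with 139 annotated genes. Of these 99, or 71.2%, had at least 50 sense reads, beside 29.1% of all nuclear coding genes. The median over the listed genes as a whole was 0.935 RPKM, beside 0.0858 over all nuclear coding genes. The highest position held 20% or more of the reads in 41 of 99, antisense shares were above 50% in 6 of 107, and 24 of 52 reached an acidic ratio of 2. These shares, 41.4%, 5.61% and 46.2%, stand beside the 58.7%, 15.7% and 39.9% of the backgrounds above.

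Among HSP90 co-chaperones 13 of 14 had at least 50 sense reads. Cdc37, which brings kinases to HSP90, had 18356 reads and 71.1 RPKM, the cyclophilin gene Ppid 6388 and 43.7 RPKM, and the FK506-binding protein gene Fkbp5 2214 and 7.42 RPKM. The acidic ratio of Cdc37 was 0.0431, with 119 of 18280 coding reads in its acidic parts. Of 7 co-chaperones with an acidic part and enough reads, 3 reached 2.

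Other HSP70 genes and exchange factors had at least 50 reads in 10 of 22. St13, an HSP70-binding protein gene, had 5821 reads, the ubiquitin ligase gene Stub1 had 477 and the endoplasmic reticulum exchange factor gene Hyou1 447. Of 26 J-domain genes 21 had at least 50, led by Sec63 with 1961, Dnajc21 with 1554 and Dnajb6 with 1304. The acidic ratio was 0.383 in St13, 4.42 in Stub1, 15.4 in Hyou1, 14.4 in Sec63 and 0.655 in Dnajc21. With an acidic part and enough reads, 2 of 4 genes of the HSP70 list and 3 of 13 J-domain genes reached 2. Over nuclear coding genes 39.9% did.

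Of the 15 genes of the CCT chaperonin, the cytosolic counterpart of HSP60, and of prefoldin, 12 had at least 50 reads. Tcp1 had 5410 sense and 4728 antisense reads, an antisense share of 46.6%, Cct6a had 1525 sense reads and Cct2 1334. Cct6a had 50208 reads that matched other genes as well. The mitochondrial list had 5 of 7, with Clpx at 244, Trap1 at 105 and Hspe1, the lid of the HSP60 ring, at 103. Hspe1 lies opposite to Hspd1, and 92.9% of its reads were antisense. An acidic ratio of 2 was reached by 1 of 2 measurable genes of the CCT and prefoldin list and 1 of 3 of the mitochondrial list.

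In the endoplasmic reticulum list 12 of 16 had at least 50. Calr, the soluble relative of calnexin, had 17591 reads and 194 RPKM, above the 88.4 RPKM of Canx, the disulfide isomerase genes Pdia3 and P4hb had 2113 and 1711. Here 5 of 7 reached an acidic ratio of 2, and in Calr 15458 of 17401 coding reads lay in acidic parts, which are 31.0% of its codons, a ratio of 17.7. The nuclear acidic histone chaperones had 17 of 17 with at least 50 reads and 8 of 12 with a ratio of 2. Anp32e had 18403 of 18427 coding reads in acidic parts that are 46.2% of its codons, while Ssrp1 had a ratio of 0.269 and Npm1 one of 0.0846.

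The last 2 lists differed. Of 10 small heat shock protein genes 1, Cryab, had at least 50 sense reads, with 60, and 4 had none. Of 12 heat shock and unfolded protein response factor genes 8 had at least 50, and the list medians were 0.0126 and 0.477 RPKM. Of all nuclear coding genes 29.1% had that many, with the median of 0.0858 RPKM given above. The transcription factor gene Ddit3 had 480 and 8.89 RPKM, the kinase gene Eif2ak3 368 and 1.94 RPKM, and the transcription factor gene Atf4 240 and 3.23 RPKM. An acidic ratio of 2 was reached by 1 of 4 measurable response factor genes, and no small heat shock protein gene could be measured.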

How the data were processed

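The authors deposited, per the labels, reads of nuclear RNA immunoprecipitates made into cDNA by template switching, and the table used here gives a whole-number count for each distinct sequence, not scaled to depth. The table's name carries the marks uniq, noribo and nohomop, which read as unique sequences without ribosomal and homopolymer reads. How reads were collapsed and filtered, and any aligner, are not given in the sources used here. The submitters' processing notes name mm9. Reads lost their leading 6 bases, and those with at least 20 left were matched to GENCODE M21 transcripts (GRCm38) with bwa 0.7.19, up to 2 mismatches and no gaps. A read counted for a gene if it matched no other gene equally well, separately by strand, and a start position is the base under the first matched read base. Of 10000 simulated reads of the members, 76.1% returned to their gene, 23.5% matched several and 0.380% went wrong. Intervals are exact, from scipy 1.17.1. All 10 members are named, with up to 3 stretches of 50 bases each holding at least 5% of sense reads, and the 3 highest genes of each list. For Hspa4, Hspd1, Hsph1 and Hspa8 only the highest stretch is described. Sequences are given for coding stretches of members with at least 1000 sense reads, other than Hspa9, whose sequences are not reported here. Members and lists were chosen with earlier results of these data known, and the shared stretch of Hsp90aa1 was added after its values were seen. Alternatives are given in the closing section.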

Additional observations from a re-analysis of the deposited data

How the results depend on the processing

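The count of members with at least 50 sense reads stayed within 1.5 times its value of 9 under every alternative run, and that of members with a dominant start position within 1.5 times 2. With 0 mismatches the antisense call of Hspa8 was lost, leaving 0 members, at 61.7% from 37 antisense and 23 sense reads. Hspa8 fell under the minimum, and so was not tested, with each distinct sequence or each start position counted once. The same held with 36-base reads alone and with a minimum of 200 reads. The count of members with an acidic ratio of 2 was 5 with each start position once and 1 with 30-residue windows of at least 12 acidic residues, where the log2 ratio of Hsp90ab1 was 0.62 against 2.34, and the cause was not tested. Adding shared reads, an alternative chosen after seeing the data, reversed the log2 ratio of Hsp90aa1 from -7.33 to 2.98. Other acidic windows also changed signs. With 10-residue windows of at least 6 acidic residues the log2 ratio of Hspa5 went from 0.903 to -1.13 and that of Hspa4 from -0.291 to 1.07. With 20-residue windows of at least 10, that of Canx went from 0.551 to -0.222. The median of 23.3 RPKM became 60.4 with each start position once, scaled to assigned positions. It became 11.8 with 36-base reads alone and 7.25 when no other gene could lie within 1 further mismatch, each scaled to the reads kept. In the last of these settings Hsp90aa1 fell from 144 to 6.07 RPKM and Hspa9 from 19.8 to 8.43. No paired analysis was possible because the counts carry no sample. Few reads of 1 gene limit Hspa8, Hsph1 and Hspd1, with 25, 141 and 232 sense reads. Hspa8 and Hspd1 had 3962 and 533 further reads that matched other genes as well, and Hsph1 had none.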
